A study of Mus musculus with 9 samples.

Results

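A set of 6 genes of metal binding, glutathione chemistry and oxidant handling was followed across mouse lens RNA libraries: Mt1, Gsta4, Gstm1, Gstp2, Gpx8 and Cyba. They were chosen by symbol, 6 of the 190 genes that the tables of the knockout and its control list. The series studied loss of Sip1, the protein of Zeb2, in the lens at 15.5 days post conception, with 3 libraries in each of 3 groups and 30 lenses in each library. Conditional knockout (cKO) lenses were Sip1 flox/flox with the MLR10Cre transgene, which drives Cre recombinase in the lens, on a mixed strain background. Mixed wild type (WT) lenses were Sip1 flox/flox without Cre on the same kind of background, so both of these groups carry the floxed alleles. Inbred WT lenses came from strain C57Bl/6<har>, for which the labels give no genotype. Every one of the 190 genes differed between cKO and mixed WT by at least 2.505-fold in the authors' normalized expression values. That difference selected the genes, so their cKO and mixed WT values are given below as a description and without a test.

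Metallothioneins are small, cysteine-rich proteins that bind zinc and copper, and their genes are switched on by metals and by oxidants. Glutathione is a thiol tripeptide held at high concentration in the lens, where it keeps crystallins and membrane proteins reduced and serves as the substrate of glutathione transferases and peroxidases. Cyba stands apart in role: it encodes the small membrane subunit shared by several NADPH oxidases, which make superoxide rather than remove it.

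Sequences are shown for Mt1 and for the Gstp pair, and a link between promoter sequence and level was not tested. The Mt1 promoter is shown because Mt1 had the largest difference of the 6. It comes from RefSeq (GRCm38.p6, chr8:94178839-94179138, plus strand), runs from 250 bases before to 50 after the annotated start, and has metal response cores (TGCACNC or TGCGCNC on either strand) in capitals.
Mt1 promoter: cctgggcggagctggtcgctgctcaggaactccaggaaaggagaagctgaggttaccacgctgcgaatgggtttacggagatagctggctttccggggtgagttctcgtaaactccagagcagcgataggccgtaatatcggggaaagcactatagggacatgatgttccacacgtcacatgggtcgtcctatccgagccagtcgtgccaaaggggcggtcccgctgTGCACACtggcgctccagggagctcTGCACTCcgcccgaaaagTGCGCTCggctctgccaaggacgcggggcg
The window held 3 such cores, starting at positions -23, 3 and 21 relative to the annotated start site, all on the plus strand. Positions and counts of cores here rest on the annotated starts. Cores beyond the windows, or near any other start, were not counted. Of 32851 mouse promoter windows of this length, 1.97% held at least 3 cores and 25.7% held at least 1. The window of the neighbouring metallothionein gene Mt2 held 4, a number reached by 0.518% of windows. Gstm1 and Gstp2, both lower in cKO, had 1 core each, on the strand opposite to the gene. The Gstm1 core lies in both of its overlapping windows, at -74 and -229 from their start sites. Gpx8 and Cyba had 0. Gsta4, the other gene of the set that was higher in cKO, has no promoter window here, so cores cannot be set beside the direction of change.

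The first 180 coding bases of Gstp2 and of its neighbour Gstp1 on chromosome 19 are shown because reads from these 2 genes are hard to tell apart. They are taken from GENCODE M21 transcripts (GRCm38, minus strand), with the bases that differ in capitals.
Gstp2 coding start: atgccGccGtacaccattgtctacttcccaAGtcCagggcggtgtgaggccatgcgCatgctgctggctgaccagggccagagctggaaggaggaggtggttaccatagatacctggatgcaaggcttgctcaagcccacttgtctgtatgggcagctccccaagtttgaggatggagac
Gstp1 coding start: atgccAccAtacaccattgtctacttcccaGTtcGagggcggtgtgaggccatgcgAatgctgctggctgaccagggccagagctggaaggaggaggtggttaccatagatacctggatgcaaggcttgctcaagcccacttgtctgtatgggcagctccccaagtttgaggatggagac
This stretch held 6 of the 12 differences between the 2 coding sequences, which are 633 bases long and 98.1% identical. The longest run without a difference was 303 bases. Of the 31-base words of the Gstp2 transcript, 78.1% also occurred in a transcript of another gene, and 69.6% in Gstp1. For Gstm1 34.3% of the words were shared, most with the pseudogene Gstm2-ps1 (26.9%). No word of Mt1, Gsta4, Gpx8 or Cyba was shared.

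The windows of Gstp2 (chr19:4042172-4042471, minus strand) and Gstp1 both held TGAGTCAGC, a motif that AP-1 and NRF2 factors can bind, at positions -89 and -74. It was present in 0.414% of all windows. The Gstp2 window is shown with this motif and a metal core in capitals.
Gstp2 promoter: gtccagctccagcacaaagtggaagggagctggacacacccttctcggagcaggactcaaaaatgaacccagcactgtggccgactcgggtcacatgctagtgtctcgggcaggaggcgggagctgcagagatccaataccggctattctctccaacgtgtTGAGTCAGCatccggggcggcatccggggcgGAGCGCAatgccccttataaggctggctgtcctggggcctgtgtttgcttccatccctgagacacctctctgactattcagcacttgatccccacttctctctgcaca
The classical antioxidant response core TGACNNNGC was held by 12.4% of windows. It was in no window of the 5 genes of the set that the promoter table covers, while the Mt2 window held it. Bases beyond the windows were not searched, so a gene whose window has no such core, Mt1 included, may still hold it nearby. TGAGTCAGC itself does not match that core. The E-box CACCTG, which ZEB proteins can bind, was found in the window of Cyba alone among those 5, against 20.2% of all windows. These are matches of letters on either strand within 300 bases and do not show binding.

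Expression is given as RPKM, reads per kilobase of exon scaled to the mapped reads of the library, as the authors deposited it. Depth recovered from the steps between low RPKM values was 25.9 to 27.4 M reads in cKO, 38.7 to 44.1 M reads in mixed WT and 14.1 to 16.7 M reads in inbred WT. The lens was recognisable from 13 of 13 fibre markers and 6 of 6 epithelial markers in the inbred tables. None of 16 macrophage and leukocyte markers was listed there, where the lowest mean was 2 RPKM. Zeb2 is not among the 190 genes used here, so the cKO label could not be checked against its target. Cre itself and depth separate cKO from mixed WT too, and inbred WT comes from another background and other tables. Such differences cannot be told apart from the loss of Sip1 or from each other.

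**Figure D1:**
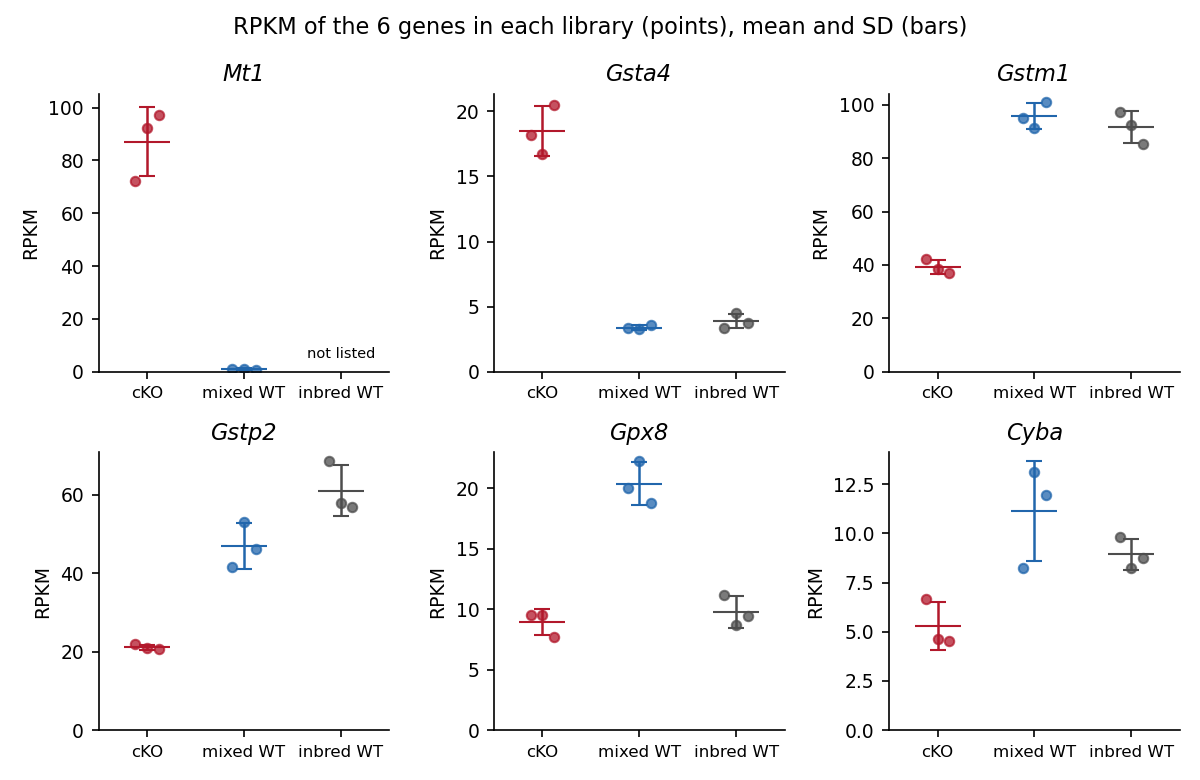
RPKM of each of the 6 genes in every library that lists it (points, linear axes from 0), with the mean and SD of each group (bars, n = 3). Mt1 has no inbred WT value and is higher in cKO than in mixed WT. Gsta4 is highest in cKO, while the cKO points of Gstm1, Gstp2 and Cyba lie under those of both wild types. Gpx8 is highest in mixed WT.

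Mt1 was high in all cKO libraries and near the lower end of the scale in mixed WT. Its RPKM was 72.1, 92.3 and 97.0 in cKO, against 1.03, 1.14 and 0.603 in mixed WT. The means were 87.2 ± 13.2 RPKM in cKO and 0.924 ± 0.283 RPKM in mixed WT (SD, n = 3 each), a ratio of 94.3. The groups lay far apart, and only 3 of the 190 genes had a larger ratio. Mt1 took the first place among the 6 genes in cKO and the last in mixed WT. It is outside the inbred tables, as are the other metallothioneins Mt2, Mt3 and Mt4, so no inbred WT value can be set beside it. The mean RPKM in the higher of the 2 groups was at least 2.14 for every listed gene, so a gene as low as Mt1 in mixed WT could be listed through a rise alone. Among the other genes of metal response, Mtf1, the zinc-sensing transcription factor gene of metallothioneins, was at 3.20 ± 0.257 RPKM and Slc30a1, a zinc exporter gene, at 2.91 ± 0.173 RPKM in inbred WT (SD, n = 3), and neither is among the 190.

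Gsta4 encodes a glutathione transferase that acts on reactive aldehydes formed from oxidised lipids. Its RPKM was 18.2, 16.7 and 20.5 in cKO, 3.38, 3.25 and 3.56 in mixed WT and 3.38, 4.49 and 3.77 in inbred WT. The cKO libraries stood above all 6 wild type libraries, and the 2 wild types overlapped. The cKO mean of 18.5 ± 1.91 RPKM was 5.44 times the mixed WT mean of 3.39 ± 0.157 RPKM (SD, n = 3 each). Behind these values were 414 to 510 reads in cKO, 125 to 150 in mixed WT and 51 to 70 in inbred WT.

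Gstm1, a mu class transferase gene, was the most abundant of the 6 in both wild types. It was at 42.1, 38.4 and 37.1 RPKM in cKO, 94.9, 91.4 and 101 RPKM in mixed WT and 97.2, 92.5 and 85.4 RPKM in inbred WT. The cKO mean of 39.2 ± 2.57 RPKM was 2.44-fold under the mixed WT mean of 95.8 ± 4.86 RPKM (SD, n = 3 each). All cKO libraries lay below all wild type libraries, and the wild types overlapped.

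Gstp2, a pi class transferase gene, followed the same order between cKO and mixed WT but differed between the wild types. Its RPKM was 21.9, 20.8 and 20.8 in cKO, 41.6, 53.1 and 46.1 in mixed WT and 68.6, 58.0 and 56.8 in inbred WT. No 2 groups overlapped. The cKO mean of 21.2 ± 0.630 RPKM was 2.22-fold under the mixed WT mean of 47.0 ± 5.81 RPKM (SD, n = 3 each). Since Gstp1 was at 871 ± 24.0 RPKM in inbred WT (SD, n = 3), 14.2 times the level of Gstp2, the Gstp2 values are uncertain: reads of the shared words could come from either gene. Gstp1 is not among the 190.

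Gpx8 encodes a peroxidase of the endoplasmic reticulum membrane whose active site has cysteine in place of selenocysteine. It was at 9.55, 9.55 and 7.69 RPKM in cKO, 20.1, 22.3 and 18.7 RPKM in mixed WT and 11.2, 8.69 and 9.40 RPKM in inbred WT. Here the mixed WT libraries were the high ones, and cKO and inbred WT overlapped. The cKO mean of 8.93 ± 1.07 RPKM was 2.28-fold under the mixed WT mean of 20.4 ± 1.78 RPKM (SD, n = 3 each).

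Cyba, the NADPH oxidase subunit gene, was the lowest of the 6 in cKO. It was at 6.69, 4.64 and 4.52 RPKM in cKO, 8.26, 13.1 and 11.97 RPKM in mixed WT and 9.80, 8.26 and 8.77 RPKM in inbred WT. The cKO libraries were below all wild type libraries, and the highest of them, cKO replicate 1, came nearest to mixed WT replicate 1 and inbred WT replicate 2. The cKO mean of 5.28 ± 1.22 RPKM was 2.10-fold under the mixed WT mean of 11.1 ± 2.54 RPKM (SD, n = 3 each), and its coefficient of variation was 23.1% in cKO, the highest of the 6 genes there, and 22.9% in mixed WT, where Mt1 had 30.7%. The catalytic partners Cybb, Nox1, Nox3 and Nox4 were outside the inbred tables and the 190 genes, while Rac1, a GTPase gene of the oxidase complex among other roles, was at 124 ± 5.596 RPKM in inbred WT (SD, n = 3). Cyba is abundant in phagocytes, and none of the 16 macrophage and leukocyte markers was in the inbred tables or among the 190. The inbred tables hold no gene under a mean of 2 RPKM, and the 190 hold only genes listed for a difference. Absence from them therefore does not measure such cells, and their part in the Cyba values was not tested.

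The order of the levels therefore differed by group. In cKO it ran Mt1, Gstm1, Gstp2, Gsta4, Gpx8, Cyba, and no neighbours in that order overlapped, although the lowest Gstp2 value (20.8 RPKM) and the highest of Gsta4 (20.5 RPKM) were close. In mixed WT it ran Gstm1, Gstp2, Gpx8, Cyba, Gsta4, Mt1, again without overlap of neighbours. In inbred WT it ran Gstm1, Gstp2, Gpx8, Cyba, Gsta4, and Gpx8 and Cyba overlapped. Among 7676 genes of the inbred tables Gstm1 stood at rank 330, Gstp2 at 533, Gpx8 at 3172, Cyba at 3416 and Gsta4 at 5921. In bulk lens RNA, fewer cells of a type and less RNA per cell cannot be told apart.

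Between cKO and mixed WT all 6 genes had groups of libraries that did not overlap, as did 100% of the 190 genes, and limma called 99.5% of the 190 (54.2% higher and 45.3% lower in cKO), so nothing is read from that count. Of the 190 genes, 103 were higher and 87 lower in cKO, and the median ratio was 5.22-fold for the higher and 2.47-fold for the lower genes. Mt1 thus lay far above the typical rise, Gsta4 close to it and the 4 lower genes at 2.10 to 2.44-fold, under the typical fall. Closest to the listing limit in the normalized values were Ehd4 (2.505-fold, the lowest), Plxna1 (2.508-fold) and then Cyba itself (2.508-fold). Genes outside the limit were not analysed here. Markers of cell types also differed between these libraries, in mixed directions within 3 of the lists. The 4 listed of 14 erythroid markers summed to 92.5 to 152 RPKM in cKO and 412 to 552 RPKM in mixed WT, mostly Hba-a2 (109 RPKM in cKO, 476 RPKM in mixed WT), and 3 were lower in cKO while Spna1 was higher (4.85 RPKM in cKO, 1.44 RPKM in mixed WT). The 4 listed of 11 surface ectoderm markers, all higher in cKO, summed to 14.9 to 19.6 RPKM in cKO and 2.06 to 2.71 RPKM in mixed WT. The 3 listed of 13 lens fibre markers summed to 3216 to 4007 RPKM in cKO and 433 to 520 RPKM in mixed WT, nearly all of it Crygs (3725 RPKM in cKO, 416 RPKM in mixed WT). The other 2 fibre markers were lower in cKO, Birc7 at 9.16 RPKM in cKO and 37.3 RPKM in mixed WT, and Dnase2b at 8.67 RPKM in cKO and 28.1 RPKM in mixed WT. The 2 listed of 14 retina and pigment markers went opposite ways and summed to 15.03 to 16.7 RPKM in cKO and 5.23 to 8.35 RPKM in mixed WT. Pde6b was at 13.9 RPKM in cKO and 0.280 RPKM in mixed WT, and Rbp3 at 1.97 RPKM in cKO and 6.69 RPKM in mixed WT. Of 10 endothelial markers Tek was listed, at 7.84 to 8.61 RPKM in cKO and 2.51 to 2.82 RPKM in mixed WT. The part of such cells in the values of the 6 genes was not tested.

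The inbred libraries took no part in the listing, which allows 2 tests, though each shares its other group with the contrast that selected the genes. Of the 6 genes 5 were listed in all 9 libraries. These 5 all passed the filter of a mean of at least 1 RPKM. Tests used limma on log2(RPKM + 0.5) over the 128 genes listed in all libraries, with Benjamini-Hochberg adjustment over the 128, and fold changes on this scale understate those of low genes. RPKM is scaled within each library, and the inbred tables are separate from those of cKO and mixed WT, so levels set across them rest on that scaling.

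Against inbred WT, 4 of the 5 genes differed in cKO, while 93.8% of the 128 genes were called (32.8% higher, 60.9% lower) and 93.8% had groups that did not overlap, so this count is near the background. Gsta4 was higher in cKO, 18.5 ± 1.91 RPKM against 3.88 ± 0.561 RPKM in inbred WT (SD, n = 3 each), and the log2 fold change was 2.12 with an SE of 0.14 (limma adjusted p = 1.54e-09). Gstp2 was lower, 21.2 ± 0.630 RPKM in cKO against 61.1 ± 6.47 RPKM in inbred WT, and the log2 fold change was -1.50 with an SE of 0.10 (limma adjusted p = 1.54e-09). Gstm1 was lower, 39.2 ± 2.57 RPKM in cKO against 91.7 ± 5.94 RPKM in inbred WT (log2 fold change -1.22, SE 0.09, limma adjusted p = 6.07e-09). Cyba was lower to a smaller degree, 5.28 ± 1.22 RPKM in cKO against 8.94 ± 0.788 RPKM in inbred WT (log2 fold change -0.72, SE 0.15, limma adjusted p = 0.000392). Each of these directions was seen in 3 of 3 cKO libraries against 3 of 3 inbred WT libraries. Gpx8 did not pass, at 8.93 ± 1.07 RPKM in cKO and 9.77 ± 1.30 RPKM in inbred WT (log2 fold change -0.12, SE 0.14, limma adjusted p = 0.396). The scale decided this call: Gpx8 was called lower in cKO under quantile normalization (-0.48, limma adjusted p = 0.0309), median centring (-0.47, 0.0061) and the normalized expression values (-0.66, 0.000184).

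Between the wild types, 2 of the 5 genes differed, and 49.2% of the 128 genes were called (30.5% higher, 18.8% lower), so again the share was close to the background. The groups of these 2 genes did not overlap, as for 57% of the 128. Over the 128 genes, 39 were called higher and 24 lower in mixed WT, a split that became 28 and 29 under quantile normalization and 23 and 37 under median centring. Gpx8 was higher, 20.4 ± 1.78 RPKM in mixed WT against 9.77 ± 1.30 RPKM in inbred WT, and the log2 fold change was 1.03 with an SE of 0.11 (limma adjusted p = 0.000203). The ratio of means was 2.08, the second largest of the 128 genes. That rank is among genes listed through their cKO and mixed WT values, so it is a description. Gstp2 was lower, 47.0 ± 5.81 RPKM in mixed WT against 61.1 ± 6.47 RPKM in inbred WT (log2 fold change -0.38, SE 0.11, limma adjusted p = 0.0211). The Gstp2 call was lost without mixed WT replicate 1 (-0.30, adjusted p = 0.0697), mixed WT replicate 3 (-0.37, 0.0517) or inbred WT replicate 1 (-0.29, 0.061). Gsta4, at 3.39 ± 0.157 RPKM in mixed WT and 3.88 ± 0.561 RPKM in inbred WT, was not called (log2 fold change -0.16, SE 0.12, limma adjusted p = 0.293). Gstm1 was at 95.8 ± 4.86 RPKM in mixed WT and 91.7 ± 5.94 RPKM in inbred WT (log2 fold change 0.063, SE 0.091, limma adjusted p = 0.567). Cyba was at 11.1 ± 2.54 RPKM in mixed WT and 8.94 ± 0.788 RPKM in inbred WT (0.28, SE 0.15, limma adjusted p = 0.155). It was called without mixed WT replicate 1, its lowest library in that group (0.47, adjusted p = 0.0111). A test that misses the threshold does not show that levels were equal.

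**Figure D2:**
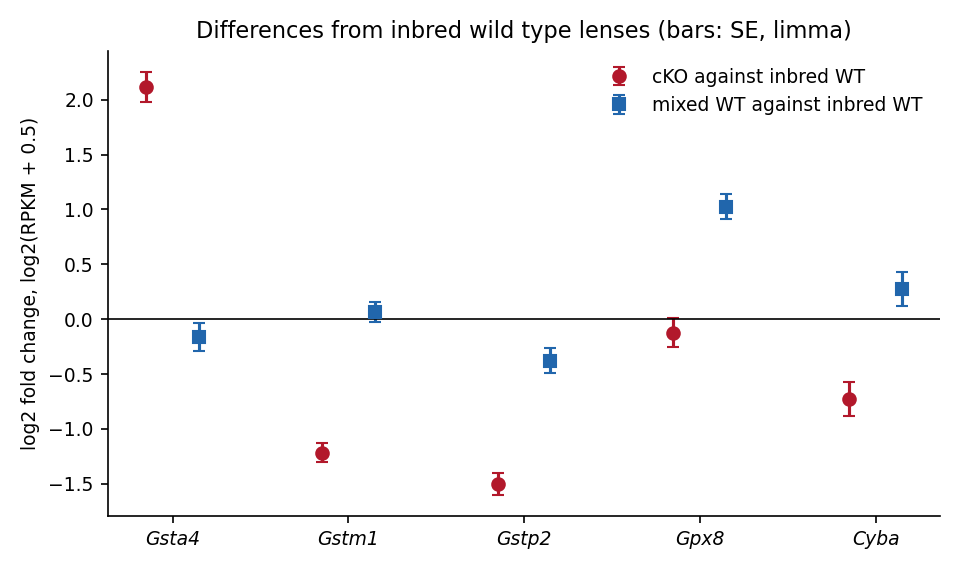
Log2 fold changes of the 5 genes listed in all 9 libraries, for cKO (circles) and mixed WT (squares) against inbred WT, on the log2(RPKM + 0.5) scale with SE from limma. Gsta4 is at 2.12 in cKO and near 0 in mixed WT, while Gpx8 is near 0 in cKO and at 1.03 in mixed WT.

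The deposited tables hold a second measure, the normalized expression value, whose method is not stated in the sources used here. Per RPKM and kilobase of exon, the typical gene of the 128 had a normalized value of 24.3 to 24.7 in cKO libraries, 28.5 to 30.6 in mixed WT and 23.6 to 25.5 in inbred WT. Ratios of cKO to mixed WT were therefore lower in this measure: over the 189 genes with both ratios the RPKM ratio was typically 1.22 times the normalized one. Mt1 was 81.6 times and Gsta4 4.45 times higher in cKO by normalized values. Gpx8 was 3.16-fold, Gstm1 3.08-fold, Gstp2 2.56-fold and Cyba 2.51-fold lower in cKO.

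**Figure D3:**
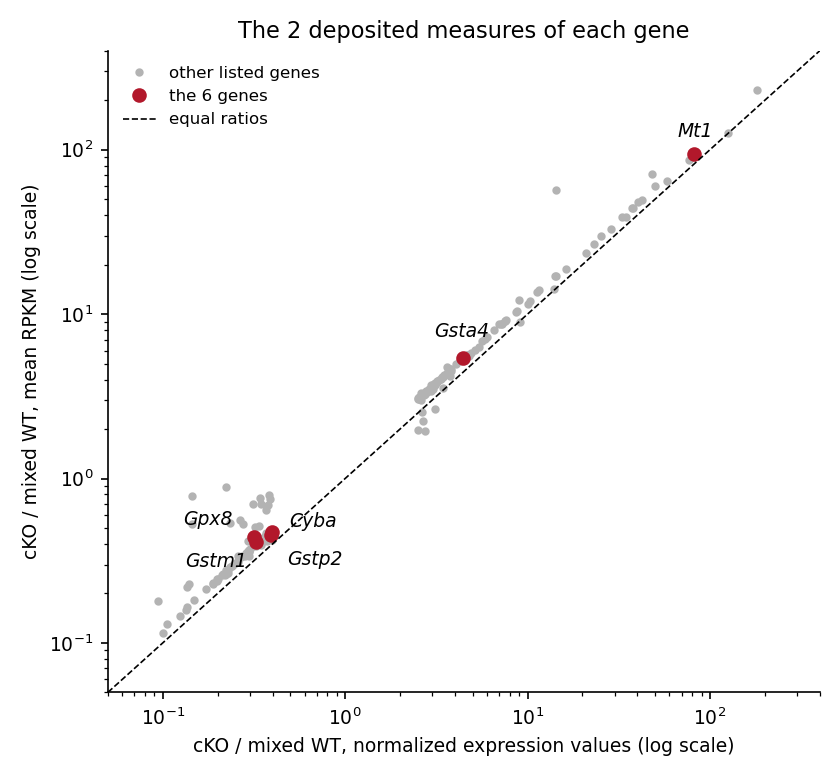
Ratio of cKO to mixed WT means in the normalized expression values (x) and in RPKM (y) for the listed genes with both ratios above 0, on log axes, with the 6 genes in red and equality dashed. Mt1 is at 81.6 and 94.3, Gsta4 at 4.45 and 5.44, and the 4 lower genes at 0.317 to 0.399 and 0.409 to 0.475.

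Gstp2 and Gpx8 had far less normalized value per RPKM than the typical gene. Gstp2 reached 23.8 ± 0.162% of the typical gene's value in cKO, 22.8 ± 0.901% in mixed WT and 24.97 ± 1.87% in inbred WT (SD, n = 3 each). For Gpx8 it was 11.5 ± 3.01% in cKO, 13.0 ± 1.54% in mixed WT and 19.3 ± 1.002% in inbred WT (SD, n = 3 each). Among all genes of the inbred tables, 3.24% were lower than Gstp2 and 2.42% lower than Gpx8 on this measure. Such values were more frequent among genes of the 190 with an exon length and at least 1 RPKM in each library of the group. There 17.2% of 122 genes were lower than Gstp2 in cKO, and 12.9% of 124 genes in mixed WT. Gstp1 was low as well, at 25.7 ± 0.975% in inbred WT (SD, n = 3). Gsta4, Gstm1 and Cyba lay between 72.5% and 131% in every library.

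Of the Gstp2 transcript words 21.9% occur in no other gene, beside 22.8% to 24.97% of the typical normalized value. The 2 percentages lay further apart for Gstp1, with 32.5% of words its own and 25.7% of the typical value in inbred WT, and for Gstm1, with 65.7% of words its own and 78.7% of the typical value in cKO, 82.1% in mixed WT and 74.0% in inbred WT. For Gpx8 no such sharing was found, since 100% of its words were its own, and Cdc20b, which overlaps it on the opposite strand, shares 0 exonic bases with it. Whether the authors' normalized values count other reads than RPKM was not tested. On the RPKM scale (the normalized value divided by the typical gene's) Gpx8 was at 2.87, 2.998 and 2.12 in mixed WT and at 2.09, 1.64 and 1.92 in inbred WT. The difference was thus smaller in this measure, 1.41-fold against 2.08-fold in RPKM, and the log2 fold change was 0.40 (limma adjusted p = 0.0328). Gstp2 on this scale was at 9.93, 11.8 and 10.3 in mixed WT and 16.4, 13.9 and 15.4 in inbred WT, a log2 fold change of -0.49 (limma adjusted p = 0.00404). Gsta4, not called in RPKM, was called lower in mixed WT here (-0.46, limma adjusted p = 0.00903).

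**Figure D4:**
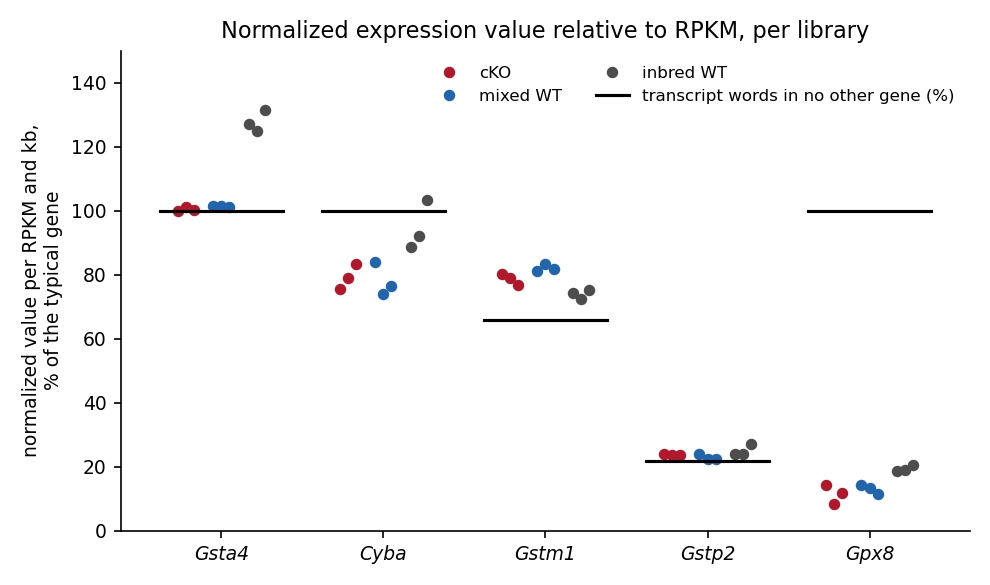
Normalized expression value per RPKM and kilobase in each library (points), as a percentage of the typical gene listed in all 9 libraries, with the percentage of 31-base transcript words found in no other gene (black lines). Gstp2 sits near its line at 21.9%, while Gpx8 lies at 8.24% to 20.5%, far under its line at 100%.

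The 6 genes sit in a wider system that the inbred tables describe. Of 112 genes in 8 lists of oxidant and metal defence, 63 were in the inbred tables, with a median of 16.6 RPKM beside 7.65 RPKM over all 7676 genes. Of the 25 transferase genes 11 were listed, led by Gstp1 (871 RPKM), Gstm1 (91.7 RPKM) and Gstm5 (63.7 RPKM). Other mu class genes were lower, with Gstm7 at 19.98, Gstm6 at 9.09 and Gstm4 at 5.22 RPKM, and Gstm2, Gstm3 and Gsta1 to Gsta3 were outside the list. Of 8 peroxidase genes 4 were listed: the cytosolic Gpx1 at 355 RPKM, the lipid peroxide reducing Gpx4 at 54.1 RPKM, Gpx8, and the secreted Gpx3 at 2.58 RPKM. Glutathione synthesis and recycling had 9 of 15, led by the amino acid transporter subunit gene Slc3a2 (128 RPKM), glutathione synthetase Gss (82.5 RPKM) and the ligase subunit gene Gclm (22.9 RPKM).

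Dismutases, catalase and peroxiredoxins were nearly all present, 11 of 12, with Sod1 at 205, Prdx2 at 81.3 and Prdx1 at 68.0 RPKM. Of 15 thioredoxin and glutaredoxin genes 11 were listed, led by Glrx3 (71.5 RPKM), Txn1 (66.2 RPKM) and Glrx5 (28.6 RPKM). Of 15 NRF2 regulators and targets 13 were listed, led by the ferritin genes Ftl1 (728 RPKM) and Fth1 (404 RPKM) and by Tkt (68.9 RPKM), an enzyme of the pentose phosphate pathway. Only 2 of 16 NADPH oxidase genes were there, Rac1 and Cyba, and 2 of 6 of the metal list.

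**Figure D5:**
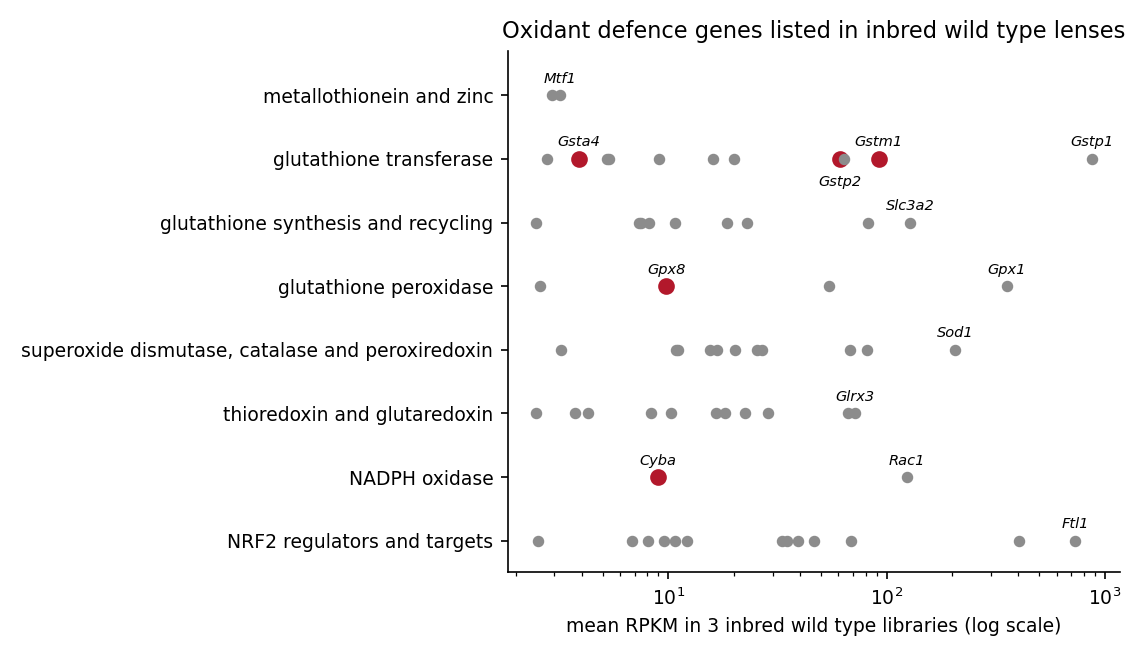
Mean RPKM over the 3 inbred WT libraries (log axis) of each listed gene in the 8 lists, with the 5 of the 6 genes listed there in red and the highest gene of each list named. Gstm1 (91.7 RPKM) and Gstp2 (61.1 RPKM) are high in their list, while Gsta4 (3.88 RPKM), Gpx8 (9.77 RPKM) and Cyba (8.94 RPKM) are under the leading genes of theirs.

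Of those 112 genes 7 were among the 190, the 6 described and Ggct, which encodes an enzyme of glutathione breakdown, gamma-glutamylcyclotransferase. Ggct was at 10.2, 12.6 and 10.2 RPKM in cKO, 23.7, 27.2 and 24.4 RPKM in mixed WT and 19.2, 19.1 and 17.4 RPKM in inbred WT. The 3 groups did not overlap, and the cKO mean was 2.29-fold under that of mixed WT. Against inbred WT Ggct was lower in cKO (log2 fold change -0.74, SE 0.12, limma adjusted p = 2.18e-05) and higher in mixed WT (0.43, SE 0.09, limma adjusted p = 0.0045). The genes of these lists thus had 2 members higher and 5 lower in cKO than in mixed WT, beside 103 and 87 over all 190. The other list genes have no values in these 2 groups, so these counts do not describe the lists.

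Profiles across libraries were compared by the root mean square difference of centred log2(RPKM + 0.5) values. Over the 6 cKO and mixed WT libraries the genes most like Mt1 were Ucma (0.60), Igfbp2 (0.67) and Igfbpl1 (0.83), all low in mixed WT, against a median distance of 2.32. Over all 9 libraries Gsta4 was nearest to Gmpr (0.12), Wnk2 (0.16) and Hddc3 (0.18). Gstm1 had the closest neighbours, Syt5 (0.082), Wdr41 (0.089) and Pmp22 (0.094), and Gstp2 those at Adc, Cnih2 and Tubb2a (0.16 each). Gpx8 was nearest to Tecrl (0.21), Hmgn3 (0.22) and Rpl17 (0.22), and Cyba to Rpl34 (0.16), Rps29 (0.19) and Tppp3 (0.19). These are descriptions over libraries that share the group differences for which the genes were listed.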

How the data were processed

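RNA from mouse lenses was sequenced in 9 libraries, 3 per group. Per the labels' protocols, a replicate was a pool of 30 lenses and the kit was TruSeq. The submitters' processing notes list CASAVA 1.8.2. The sources used here name no aligner, annotation or build. Per the file headers, the authors gave RPKM and, as a score without a stated unit, a normalized expression value for each gene, with exon lengths in the inbred tables. Symbols were trimmed of spaces and joined, and 24 inbred rows with 12 repeated symbols were left out. RPKM is not a count, so limma 3.58.1 (R 4.3.3) with a mean-variance trend was used on log2(RPKM + 0.5), on genes averaging 1 RPKM or more over the 6 libraries compared, at an adjusted p of 0.05. With 3 libraries a side, the smallest p of an exact permutation test is 0.1. The labels call the replicates independent but name no litters. RPKM times exon length fell on whole reads (within 0.1 reads for 96% to 100% of the low values used), which gave depth. All replicate pairs exceeded sampling noise, with chi-square over its degrees of freedom at 6.97 to 54.5. The typical normalized value was the median over shared genes with at least 1 RPKM. Word sharing used GENCODE M21 transcripts, both strands, and promoters RefSeq GRCm38.p6. Their build may differ from the authors'. The genes and lists were chosen with earlier results of these data known. Named genes were the 6 members, their relatives by name, the 3 nearest profiles of each, and the 3 highest genes of each list with any listed in cKO and mixed WT. Figures and tables were made with Python 3.11.15, pandas 2.3.3 and numpy 2.4.6.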

Additional observations from a re-analysis of the deposited data

How the results depend on the processing

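Between the wild types 71 of 80 alternative values for the 5 genes kept their direction and side of the threshold, and against inbred WT 77 of 80 did for cKO, over 16 alternatives each. Leaving out the filter, 1 of the 16, gave the main fit again, since all 128 genes had passed it. Its values agree by construction. The fit without a trend, the fit of all 9 libraries together and the replicate block leave the log2 fold changes unchanged. Direction could not differ in those either, only the side of the threshold. Gpx8 in mixed WT stayed called in all 16 (0.40 to 1.12), as did Gsta4, Gstm1, Gstp2 and Cyba in cKO. The exceptions between mixed and inbred WT were as follows, and the cause was not tested. Gstm1 was called higher in mixed WT under quantile normalization (0.16) and in normalized values on the RPKM scale (0.21), and was negative without a call under median centring (-0.084). Gsta4 was called lower on that scale (-0.46). Gstp2 ran from -0.47 to -0.29 and Cyba from 0.15 to 0.47 as single libraries were left out, with the calls named above. With the replicate number as a block, Gstp2 lost its call (-0.38, limma adjusted p = 0.0533) and the count of genes was 47 in place of 63. The numbers do not pair these samples (correlations of deviations -0.52 to -0.15 between the wild types), and no other call of the 5 genes changed with the block. Gpx8 in cKO against inbred WT was called under quantile normalization (-0.48), median centring (-0.47) and the normalized values (-0.66). In cKO against mixed WT, the normalized values moved the log2 ratio of means of Gsta4 to 2.16, Gstp2 to -1.36, Gstm1 to -1.62 and Gpx8 to -1.66. All 6 genes kept their direction there, under quantile normalization and under median centring, but the log2 differences moved. Median centring took Gsta4 from 2.28 to 1.40 and Mt1 from 5.95 to 5.07. The falls grew there: Gpx8 from -1.15 to -2.03, Gstm1 from -1.28 to -2.16, Gstp2 from -1.12 to -2.01 and Cyba to -1.88. Under quantile normalization Gstm1 (-0.88) and Gstp2 (-0.87) fell less, and Gpx8 (-1.55) and Cyba (-1.76) more. Gsta4 (1.83) and Mt1 (5.52) also rose less. These sizes thus depend on the scale. The genes were listed for their difference between these 2 groups in the normalized values, so nothing is read from the kept directions. Median centring moved the median log2 fold change of all tested genes to 0.49 in place of 1.37 (cKO against mixed WT), to -0.065 in place of 0.083 (mixed against inbred WT) and to -0.91 in place of -0.57 (cKO against inbred WT). These medians rest on genes listed for a difference, so neither scale can be taken as the right one. The normalized values on the RPKM scale, and the scalings of the cKO and mixed WT differences, were chosen after seeing the data. Low read numbers (51 to 70 for Gsta4 in inbred WT) limit the precision there.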
